A study of Mus musculus with 24 samples.

Results

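A set of 10 early-response genes was followed in mouse hippocampus after fear conditioning, namely Ier2, Ier3, Ier5, Srf, Klf2, Klf4, Klf6, Maff, Cyr61 and Ctgf. They were taken by symbol from the deposited count table, in which all 10 were present among 47593 genes. All 10 passed the filter on low counts, as did 19500 genes in all. The set joins serum response factor (SRF) itself with genes of the immediate early response (Ier), of the Krüppel-like zinc-finger family (Klf), of the small Maf family (Maff) and of the matricellular CCN family (Cyr61 and Ctgf, now also called Ccn1 and Ccn2).

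The 24 libraries came from hippocampi of male C57BL/6J mice aged 8 to 12 weeks, in 8 groups of 3 biological replicates. Wild-type (WT) and Tob knockout (Tob-KO) mice were naive, that is not conditioned, or had tissue taken 15 min, 1 h or 3 h past fear conditioning, in which a tone was paired with foot shocks. The Tob-KO mice belong to a knockout line described in earlier work, which is distinct from the floxed Tob mice of the same study. Tob encodes TOB, an antiproliferative protein that recruits the deadenylase complex CCR4-NOT to mRNAs. The hippocampus was taken whole, so a lower level in a group can mean fewer cells of a type or less RNA per cell, and these cannot be told apart.

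The counts of the targeted gene were higher, not lower, in the libraries labelled Tob-KO. Tob1 stood at 33.9 to 44.5 CPM (counts scaled to library size) in the 12 WT libraries and at 52.1 to 68.3 CPM in the 12 libraries labelled Tob-KO, so that the groups did not overlap. Of all genes tested 0.0308% had no overlap between these groups. Over the 4 time points its log2 fold change was 0.56 ± 0.04 (SE), with an adjusted p of 4.16e-09 in edgeR's quasi-likelihood test. A count over the whole gene does not separate a deleted part from the rest, so the direction of every genotype difference given here rests on the labels alone. Total counts ran from 28847989 to 41595972 per library, with a median of 31169386.5. Markers of hippocampal neurons were present in every library, with a summed level of 5380 to 6620 CPM over 6 genes.

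Immediate early genes are transcribed within minutes of a stimulus by factors that are already in the cell, and their mRNAs are usually short-lived. SRF is such a factor. It binds a sequence called the CArG box and works either with ternary complex factors of the Elk family, which the kinase ERK phosphorylates, or with myocardin-related cofactors (Mkl1, Mkl2), which are released when actin polymerises. In neurons the Elk arm is known for activity-dependent induction of Fos and Egr genes. Cyr61 and Ctgf are also known targets of YAP and TEAD, and Klf2 and Klf4 are induced by blood flow in endothelium.

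Upstream sequences were read from RefSeq (GRCm38.p6), which listed 10 start sites for 8 of the 10 genes. Ier2 and Ctgf had no entry. Windows of 300 bases, from 250 before to 50 after each start, were searched on both strands for the CArG box, for the cyclic AMP response element (CRE, TGACGTCA), for its half-site (TGACG, which every CRE contains), for the TEAD motif (GGAATG) and for the TATA motif (TATAAA). Of the 8 genes only Srf held a CArG box, and it held 2, at chr17:46556235-46556244 and chr17:46556215-46556224 on the minus strand, which begin 82 and 62 bases before the start. A CArG box was present in 1.63% of all 32851 listed promoters. The full CRE was found only at the second listed start of Maff, against 1.79% of all promoters. Half-sites were found in Srf, Klf2, Klf4, Cyr61 and the last 2 starts of Maff, against 20.8% of all promoters. The TEAD motif was found only in Cyr61, 103 bases before the start, against 14.7%, and the TATA motif in Srf and Cyr61, against 13.6%.

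The 250 bases before the start are shown for the 3 genes that held a CArG box, a full CRE or a TEAD motif. Capitals mark the CArG boxes in Srf (chr17:46556163-46556412, minus strand), the CRE in Maff (chr15:79347270-79347519, plus strand, second start), and the TEAD motif followed by the CRE half-site in Cyr61 (chr3:145649986-145650235, minus strand), where both motifs read on the opposite strand.
Srf: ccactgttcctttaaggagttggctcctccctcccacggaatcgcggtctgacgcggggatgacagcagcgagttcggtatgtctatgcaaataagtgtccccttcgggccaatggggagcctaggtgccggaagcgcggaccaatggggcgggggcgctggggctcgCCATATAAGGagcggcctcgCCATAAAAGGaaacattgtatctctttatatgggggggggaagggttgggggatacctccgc
Maff: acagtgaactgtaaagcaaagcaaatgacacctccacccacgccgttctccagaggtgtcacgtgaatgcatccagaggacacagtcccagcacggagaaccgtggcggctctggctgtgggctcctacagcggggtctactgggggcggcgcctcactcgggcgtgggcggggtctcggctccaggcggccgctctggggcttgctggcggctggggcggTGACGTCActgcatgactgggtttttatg
Cyr61: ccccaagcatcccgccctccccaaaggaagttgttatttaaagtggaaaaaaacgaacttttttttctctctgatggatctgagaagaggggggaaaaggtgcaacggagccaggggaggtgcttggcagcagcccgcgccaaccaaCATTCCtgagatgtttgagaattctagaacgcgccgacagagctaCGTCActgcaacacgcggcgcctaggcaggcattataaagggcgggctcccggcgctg
These letters describe the windows and not the binding of a factor, which was not measured.

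The genes differed widely in their resting level. Per kilobase of annotated exon, the WT naive mean was 22.1 ± 0.901 RPKM (CPM per kilobase, SD, n = 3) for Srf, 16.6 ± 1.18 for Ier5, 9.81 ± 1.52 for Klf6 and 8.50 ± 2.55 for Ctgf. The other 6 lay lower, at 3.79 ± 0.60 for Ier2, 3.31 ± 0.297 for Klf2, 3.01 ± 0.713 for Ier3, 2.15 ± 0.357 for Cyr61, 1.76 ± 0.716 for Klf4 and 0.437 ± 0.114 for Maff. Klf6 and Ctgf lay within their spread of each other, as did the neighbours from Ier2 to Ier3 and Cyr61 and Klf4. Maff was the least abundant, with 22 to 75 counts per library. The genes that rose after conditioning came mainly from the lower part of this order, with Srf as the exception.

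**Figure D1:**
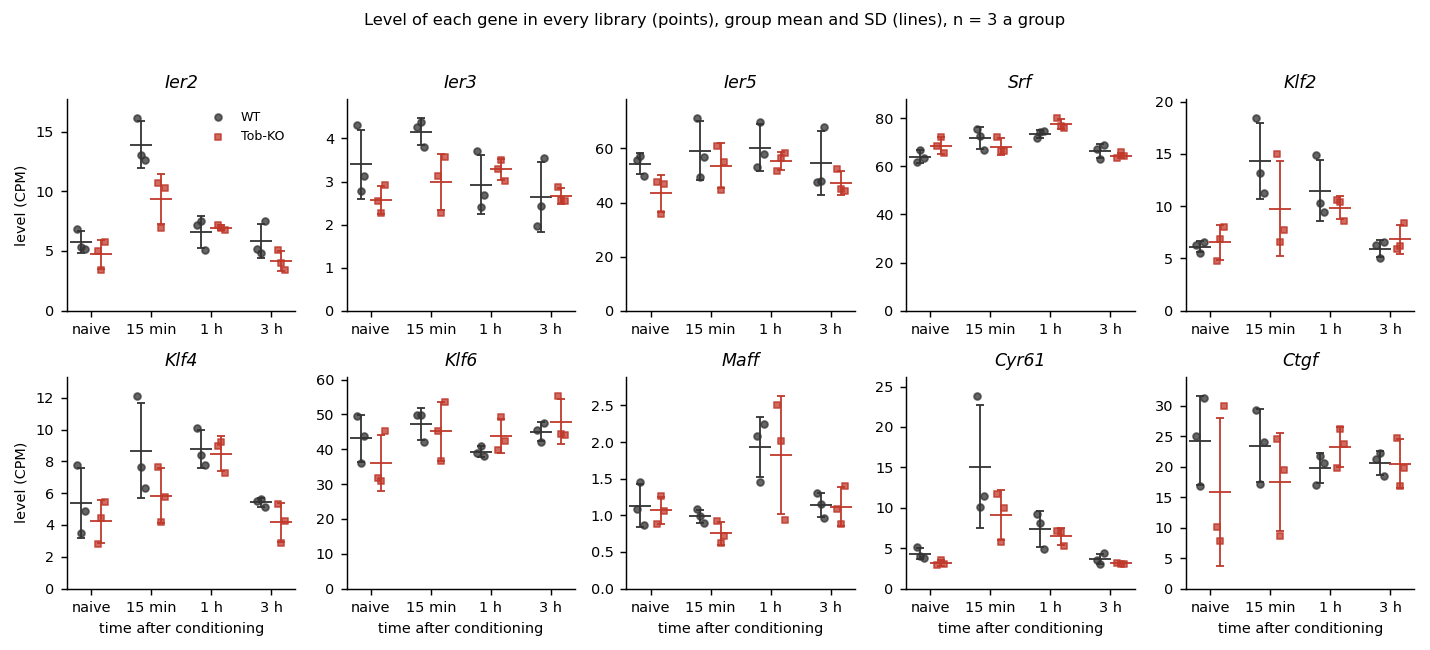
Level of each of the 10 genes in CPM (y axis, from 0, own scale per panel) at the 4 times (x axis) in WT (circles) and in libraries labelled Tob-KO (squares); points are libraries and lines the group mean and SD. Ier2 and Cyr61 are highest at 15 min, Maff at 1 h, and Ier3, Ier5, Klf6 and Ctgf show overlapping groups at most times.

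The first question was which of the genes changed over time after conditioning. Averaged over the genotypes, 3 of the 10 genes had risen at 15 min (Cyr61, Ier2 and Klf2), 5 at 1 h (Cyr61, Klf4, Maff, Klf2 and Srf) and 0 at 3 h. At 15 min 4.35% of all genes tested were called and 1.6% were called higher. At 1 h 5.89% were called and 2.36% called higher. At 3 h the share was 0%. The median log2 fold change of the 10 genes was 0.24 at 15 min, 0.31 at 1 h and 0.00177 at 3 h, and that of all genes tested was 0.00171, -0.00303 and -0.00719 at these times. The 3 comparisons share the naive libraries and are not independent of each other. The genes fall below into those highest at 15 min, those highest or still high at 1 h, and those without a called change.

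**Figure D2:**
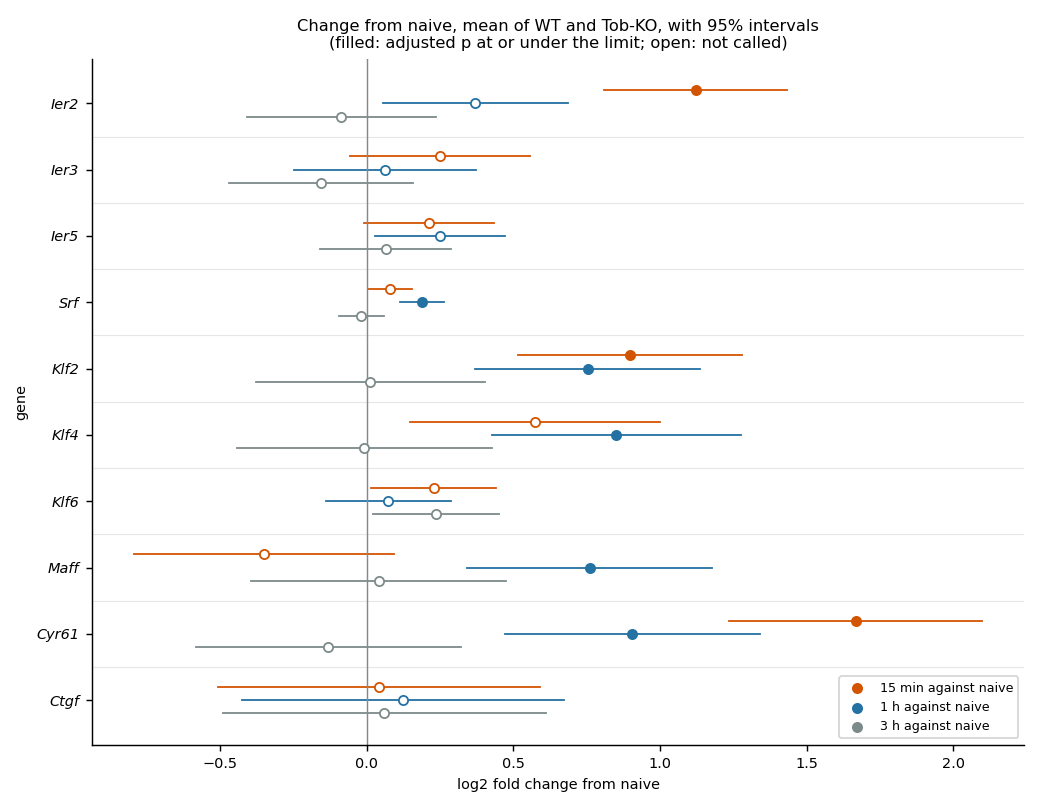
Log2 fold change from naive (x axis) for each gene (y axis), averaged over WT and libraries labelled Tob-KO (6 against 6 libraries), with 95% intervals; filled points passed the adjusted p limit of 0.05 and open points did not. Filled points at 15 min are Ier2, Klf2 and Cyr61, filled points at 1 h are Srf, Klf2, Klf4, Maff and Cyr61, and all 10 genes have open points at 3 h.

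Cyr61, which encodes a secreted protein of the extracellular matrix that binds integrins, showed the largest rise of the 10. In WT it measured 5.15, 4.06 and 3.79 CPM in naive libraries, 23.8, 10.1 and 11.4 at 15 min, 9.27, 8.08 and 4.94 at 1 h, and 3.58, 3.09 and 4.36 at 3 h. In the libraries labelled Tob-KO it measured 2.88, 3.52 and 3.06 CPM when naive, 11.7, 5.72 and 10 at 15 min, 7.17, 6.96 and 5.25 at 1 h, and 3.18, 3.09 and 3.02 at 3 h. Every library at 15 min was above every naive library of its genotype, as held for 5.51% of all genes tested in WT and 8.85% in those labelled Tob-KO. WT replicate 1 at 15 min stood well above the other WT libraries. That library also had the highest blood marker score of the 24, at 1.92 against 0.668 and 0.97 in the other WT libraries at 15 min, and the part of these markers in the value of Cyr61 was not tested.

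The log2 fold change of Cyr61 at 15 min was 1.67 ± 0.21 (SE), or 3.18-fold (95% interval 2.36 to 4.28), with an adjusted p of 0.00022 in the quasi-likelihood test of edgeR, adjusted by Benjamini and Hochberg. At 1 h it was 0.90 ± 0.21 above naive (adjusted p 0.0138, same test). The step from 15 min to 1 h, -0.76 ± 0.20, missed the limit (adjusted p 0.0888, same test) but passed it with DESeq2 (0.0116) and without the filter on low counts (0.0418), and that from 1 h to 3 h, -1.04 ± 0.21, passed it (adjusted p 0.00917, same test).

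Ier2, which encodes a short nuclear protein induced by many stimuli, was likewise highest at 15 min. In WT it measured 6.83, 5.32 and 5.18 CPM when naive, 16.1, 13.0 and 12.6 at 15 min, 7.16, 7.5 and 5.07 at 1 h, and 5.18, 4.83 and 7.51 at 3 h. The libraries labelled Tob-KO held 5.01, 3.39 and 5.77 CPM when naive, 10.7, 6.93 and 10.3 at 15 min, 7.14, 6.92 and 6.75 at 1 h, and 5.07, 4.0 and 3.40 at 3 h. Again all libraries at 15 min were above the naive libraries of their genotype, to be read against the shares of all genes given for Cyr61. The log2 fold change at 15 min was 1.12 ± 0.15, or 2.18-fold (1.75 to 2.70), with an adjusted p of 0.000336 in the quasi-likelihood test of edgeR. Ier2 fell by 0.75 on the log2 scale from 15 min to 1 h (SE 0.15, adjusted p 0.0296, same test), and at 1 h its value of 0.37 ± 0.15 above naive was not called (adjusted p 0.17).

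Between 15 min and 1 h, 2 of the 10 genes were called, Ier2 downward and Maff upward, against 0.41% of all genes tested. Of the 12 libraries in that comparison, leaving out any 1 of WT 15 min replicate 2, WT 1 h replicate 3, labelled Tob-KO 15 min replicate 3 or labelled Tob-KO 1 h replicates 2 and 3 ended the call of Ier2 (adjusted p 0.0718 to 0.106 in edgeR's quasi-likelihood test), with log2 fold changes of -0.78 to -0.67.

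Within each genotype Ier2 and Cyr61 were called at 15 min. In WT, 2 of 10 genes were called against 0.0462% of all genes tested, with a log2 fold change of 1.27 ± 0.21 for Ier2 (adjusted p 0.0190) and 1.80 ± 0.29 for Cyr61 (adjusted p 0.0190) in edgeR's quasi-likelihood test over the 24 libraries. In the libraries labelled Tob-KO, 2 of 10 were called against 2.51% of all genes and 0.836% in the higher direction, with 0.98 ± 0.21 for Ier2 (adjusted p 0.0207) and 1.53 ± 0.30 for Cyr61 (adjusted p 0.0146, same test). The WT calls of both genes were lost without WT naive replicate 2 (adjusted p 0.151 and 0.147), WT naive replicate 3 (both 0.187) or WT 15 min replicate 1 (0.0911 and 0.0809), where Cyr61 was 1.31 instead of 1.80. Those of the libraries labelled Tob-KO were lost for both genes without 15 min replicate 3 (0.14 and 0.0735), and for Ier2 also without naive replicate 2 (0.0843) or 15 min replicate 1 (0.0682). With only the 6 libraries compared in the quasi-likelihood fit, neither gene was called in either genotype (adjusted p 0.144 to 0.303). On the same 6 libraries edgeR's exact test called both genes in both genotypes. The shares of all genes above are those of the quasi-likelihood test over the 24 libraries and do not apply to other tests. Klf2 in WT had 1.23 ± 0.26 (adjusted p 0.123) and was called by DESeq2 (0.00163), without the filter on low counts (0.0169) and by edgeR's exact test on the 6 libraries (1.21e-06).

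Klf2 encodes a zinc-finger factor known for its role in quiescent endothelium. It measured 6.27, 5.51 and 6.58 CPM in WT naive libraries, 18.4, 13.2 and 11.3 at 15 min, 14.9, 10.3 and 9.44 at 1 h, and 6.25, 5.0 and 6.58 at 3 h. In the libraries labelled Tob-KO it measured 4.71, 6.91 and 7.98 CPM when naive, 15.0, 6.59 and 7.73 at 15 min, 10.6, 10.4 and 8.61 at 1 h, and 5.90, 6.21 and 8.39 at 3 h. The WT groups at 15 min and 1 h did not overlap with naive, as held for 10.6% and 16.1% of all genes tested in either direction. Of the libraries labelled Tob-KO at 15 min only replicate 1 was above the naive range. At 1 h all 3 were, as held for 9.47% of all genes tested. Averaged over the genotypes the log2 fold change of Klf2 was 0.90 ± 0.18 at 15 min (adjusted p 0.00887) and 0.75 ± 0.18 at 1 h (adjusted p 0.0189) in edgeR's quasi-likelihood test, the latter lost without labelled Tob-KO naive replicate 1 (0.053). With only the 12 libraries compared in the fit the call at 15 min was lost too (adjusted p 0.0719).

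Klf4, a zinc-finger factor known from stem cells and endothelium, was called at 1 h. It measured 7.78, 3.51 and 4.85 CPM in WT naive libraries, 12.1, 7.65 and 6.31 at 15 min, 10.1, 8.43 and 7.76 at 1 h, and 5.52, 5.63 and 5.11 at 3 h. The libraries labelled Tob-KO held 2.78, 4.43 and 5.45 CPM when naive, 7.62, 4.18 and 5.75 at 15 min, 8.97, 9.25 and 7.25 at 1 h, and 5.34, 2.89 and 4.28 at 3 h. The groups overlapped at 15 min in both genotypes, where the log2 fold change was 0.57 ± 0.20 (adjusted p 0.114 in edgeR's quasi-likelihood test, 0.0292 without WT naive replicate 1, and 0.0478 in DESeq2, where it was called). At 1 h it was 0.85 ± 0.20, or 1.80-fold (1.34 to 2.42), with an adjusted p of 0.0167.

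Maff, a small Maf factor that has no activation domain of its own and pairs with partners such as Nfe2l2 and Bach1, was called at 1 h only. In WT it measured 1.09, 1.45 and 0.864 CPM when naive, 1.08, 0.995 and 0.897 at 15 min, 2.08, 1.46 and 2.25 at 1 h, and 1.30, 1.15 and 0.966 at 3 h. In the libraries labelled Tob-KO it measured 0.884, 1.26 and 1.06 CPM when naive, 0.928, 0.617 and 0.724 at 15 min, 2.50, 2.02 and 0.931 at 1 h, and 1.09, 0.878 and 1.4 at 3 h. Thus 5 of the 6 libraries at 1 h were above all 6 naive libraries, and labelled Tob-KO replicate 3 was within the naive range. WT replicate 2 at 1 h was only just above, at 1.46 against 1.45 CPM in WT naive replicate 2. In WT, 7.48% of all genes tested had all 1 h libraries above all naive ones. The log2 fold change was 0.76 ± 0.20 against naive (adjusted p 0.0285) and 1.11 ± 0.21 against 15 min (adjusted p 0.0238, edgeR's quasi-likelihood test), while at 15 min it was -0.35 ± 0.21 (adjusted p 0.372). These calls rest on few counts. The call against naive was lost without any 1 of 8 of the 12 libraries (adjusted p 0.0501 to 0.0889), which were replicates 1 and 3 of WT naive, of WT 1 h and of labelled Tob-KO naive, and replicates 1 and 2 of labelled Tob-KO 1 h. It was also lost with only the 12 libraries compared in the fit (0.0808). The call against 15 min was lost with only its 12 libraries (0.0684) and without any 1 of 6 of them (0.0506 to 0.0904), which were replicates 2 and 3 of WT 15 min and of labelled Tob-KO 15 min, WT 1 h replicate 3 and labelled Tob-KO 1 h replicate 2.

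Srf moved least among the called genes but was measured with the smallest error. It measured 61.7, 66.8 and 63.6 CPM in WT naive libraries, 75.7, 72.8 and 66.9 at 15 min, 71.6, 74.2 and 74.6 at 1 h, and 67.4, 63.0 and 68.7 at 3 h. The libraries labelled Tob-KO held 68.3, 72.2 and 65.4 CPM when naive, 72.3, 66.2 and 66.2 at 15 min, 79.9, 76.7 and 76.0 at 1 h, and 63.6, 65.8 and 64.1 at 3 h. Within each genotype the 1 h libraries were above all naive and all 3 h libraries. Of all genes tested, 7.48% in WT and 9.47% in those labelled Tob-KO had all 1 h libraries above all naive ones. The log2 fold change at 1 h was 0.19 ± 0.04, or 1.14-fold (1.08 to 1.2), with an adjusted p of 0.00498 in edgeR's quasi-likelihood test, and the call remained without any 1 of the 12 libraries. Srf overlaps the opposite-strand lincRNA Gm26904 and the miRNA gene Mir6976, and whether reads were counted by strand is not stated.

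From 1 h to 3 h 4 of the 10 genes fell, against 3.31% of all genes called and 1.98% called lower. They were Cyr61 (above), Klf4 by 0.86 on the log2 scale (SE 0.20, adjusted p 0.0225), Klf2 by 0.74 (SE 0.18, adjusted p 0.0287) and Srf by 0.21 (SE 0.04, adjusted p 0.0032), in edgeR's quasi-likelihood test. Maff had a value of -0.72 ± 0.20 that missed the limit (adjusted p 0.0509). In all 4 called genes the 6 libraries at 3 h were below the 6 libraries at 1 h, and 3.42% of all genes tested had no overlap between these times in either direction. The calls of Srf and Cyr61 remained without any 1 library, that of Klf2 was lost without any 1 of 7 (adjusted p 0.0504 to 0.0866) and that of Klf4 without any 1 of 4, namely WT 1 h replicate 1, WT 3 h replicate 3, labelled Tob-KO 1 h replicate 2 or labelled Tob-KO 3 h replicate 2 (0.054 to 0.0614). The 7 libraries for Klf2 were WT 1 h replicate 1 and replicates 1 and 2 of WT 3 h, of labelled Tob-KO 1 h and of labelled Tob-KO 3 h. Maff passed the limit without WT 1 h replicate 2 (0.04), labelled Tob-KO 1 h replicate 3 (0.00842) or labelled Tob-KO 3 h replicate 3 (0.0465).

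Within a genotype none of the 10 genes was called at 1 h or 3 h by edgeR's quasi-likelihood test. At 1 h 0.185% of all genes were called in WT and 1.13% in Tob-KO by label, and at 3 h 0% in both. At an unadjusted p of at most 0.05, 5 members passed at 1 h in WT, 7 at that time in those labelled Tob-KO, 0 at 3 h in WT and 1 at 3 h in those labelled Tob-KO (Klf6). Of all 19500 genes the numbers at that p were 2110, 3037, 779 and 2071 in the same order. DESeq2 called 2 genes at 1 h in WT (Klf2 and Srf) and 3 at 1 h in those labelled Tob-KO (Srf, Klf4 and Cyr61), and 0 at 3 h in each. The shares of all genes above are those of the quasi-likelihood test. They do not apply to these DESeq2 counts, which therefore have no background beside them. Averaged over the genotypes, 1 gene had an unadjusted p of at most 0.05 at 3 h (Klf6), as had 1746 of all genes, and DESeq2 called 0.

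The other 4 genes, Ier3, Ier5, Klf6 and Ctgf, had no called change at any time. Ier3 encodes a regulator of cell death and ERK signalling, and ranged from 1.97 to 4.39 CPM over the 24 libraries with a log2 fold change of 0.25 at 15 min (95% interval -0.06 to 0.56). Ier5 encodes a nuclear protein of the heat-shock response and ranged from 35.7 to 71.1 CPM, with 0.21 (-0.01 to 0.43) at 15 min and 0.25 (0.03 to 0.47) at 1 h. Klf6 encodes a zinc-finger factor linked to axon growth and ranged from 31.0 to 55.2 CPM, with 0.23 (0.01 to 0.44) at 15 min and 0.24 (0.02 to 0.45) at 3 h. Their intervals leave room for changes of the size seen in Srf.

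Ctgf, the second matricellular gene, was called at no time. Its log2 fold change was 0.04 (95% interval -0.51 to 0.59) at 15 min, 0.12 (-0.43 to 0.67) at 1 h and 0.06 (-0.49 to 0.61) at 3 h. Its level ranged from 16.8 to 31.3 CPM in WT and from 7.76 to 30 CPM in the libraries labelled Tob-KO. The spread was widest in the naive libraries labelled Tob-KO, at 10.1, 7.76 and 30 CPM, where replicate 3 stood apart from the others. The summed meningeal fibroblast markers (Col1a1, Col1a2, Dcn, Lum and Slc6a13) ranged from 47.2 to 118 CPM in these 3 libraries, with scores of -0.90, -0.39 and 0.46, so replicate 3 was also highest there, and their part in the spread was not tested. Ctgf overlaps the opposite-strand transcript Gm15270.

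Markers of vascular cells stood higher at 15 min than in naive libraries, as values without a test. The score of 6 endothelial markers (Cldn5, Pecam1, Flt1, Slco1a4, Tek and Emcn), the mean of their centred log2 CPM, was 0.43 ± 0.24 (SD, n = 3) at 15 min in WT and 0.30 ± 0.12 in the libraries labelled Tob-KO, against -0.05 ± 0.25 and -0.0027 ± 0.10 in naive libraries. Their summed level was 187 to 250 CPM at 15 min in WT against 124 to 169 CPM when naive, and 169 to 192 against 138 to 150 CPM in those labelled Tob-KO. Mural markers (Rgs5, Pdgfrb, Vtn, Kcnj8, Abcc9 and Myh11) summed to 210 to 263 CPM at 15 min in WT against 155 to 201 CPM when naive, and 203 to 211 against 168 to 190 CPM in those labelled Tob-KO. No marker of either list was at 0 in any library. Across the 24 libraries the endothelial score had a Pearson r of 0.70 with Ier2, 0.66 with Cyr61, 0.51 with Klf2 and 0.33 with Klf4, given as a description since these libraries share the time course. For the mural score r was 0.72, 0.74, 0.69 and 0.55 with the same genes, and for the blood score 0.68, 0.73, 0.66 and 0.58. Lists of other cells gave such values too. For the meningeal fibroblast score r was 0.49, 0.44, 0.50 and 0.65, and for an astrocyte score (Aqp4, Gfap, Aldh1l1 and Gja1) 0.57, 0.61, 0.43 and 0.28. The astrocyte score was 0.0975 ± 0.12 at 15 min in WT against -0.03 ± 0.07 when naive, and 0.09 ± 0.08 against -0.10 ± 0.07 in those labelled Tob-KO. The blood score was 1.19 ± 0.65 at 15 min in WT against 0.09 ± 0.15 when naive, and -0.25 ± 0.15 against -0.21 ± 0.18 in those labelled Tob-KO.

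**Figure D3:**
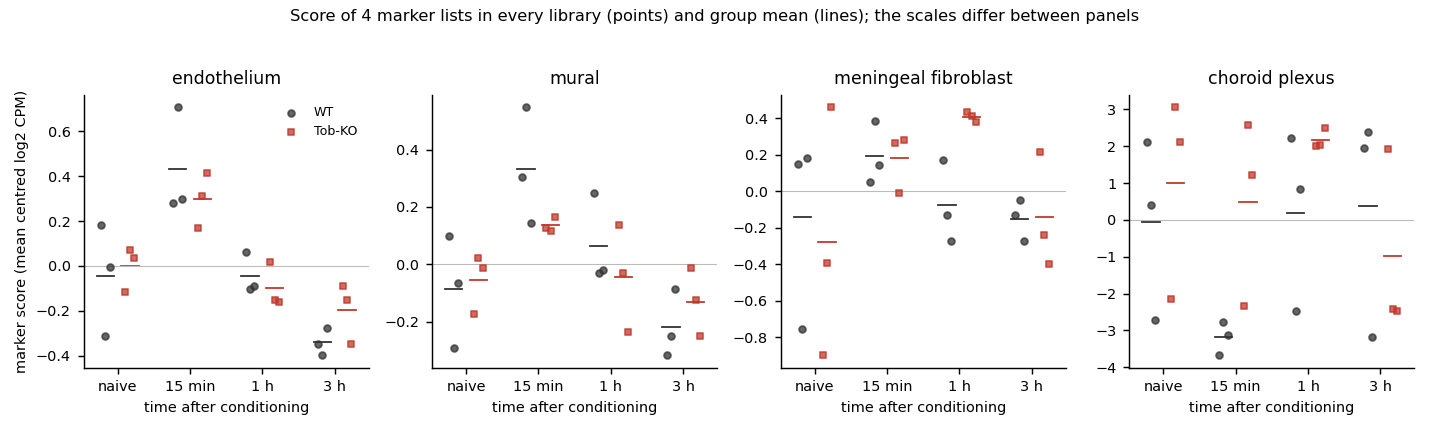
Score of 4 marker lists (mean of centred log2 CPM, y axis, own scale per panel) in every library at the 4 times (x axis), in WT (circles) and libraries labelled Tob-KO (squares), with group means as lines. The endothelial and mural scores are highest at 15 min, and the choroid plexus score splits libraries within groups, with all 3 WT libraries at 15 min between -3.67 and -2.77.

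The endothelial and mural scores, and in WT alone the blood score, were highest at the time when Ier2 and Cyr61 were highest. The part of these cells in the rises at 15 min was not tested. The following fits cannot decide it, since the endothelial score itself moved with time and no mural or blood score was fitted. With the endothelial score as a covariate, the log2 fold change at 15 min was 1.74 for Cyr61 (adjusted p 0.0248), 1.0 for Ier2 (adjusted p 0.0985) and 0.96 for Klf2 (adjusted p 0.238) in edgeR's quasi-likelihood test, so that 1 of the 3 calls at 15 min was left. Without the score these values were 1.67, 1.12 and 0.90. From 1 h to 3 h the calls of Srf and Cyr61 were left and those of Klf2 (adjusted p 0.0541) and Klf4 (0.0966) were lost, with log2 fold changes of -0.78 for Klf2 (-0.74 without the score) and -0.72 for Klf4 (-0.86 without it). At 1 h all 5 calls were left (adjusted p 0.00538 to 0.0314). The choroid plexus markers summed to between 26.5 and 4840 CPM over the libraries and were low in all 3 WT libraries at 15 min (26.5 to 45.5 CPM). With that score as a covariate the 3 calls at 15 min and the 5 calls at 1 h were left, and both calls between 15 min and 1 h were lost (Ier2 adjusted p 0.0582, Maff 0.051), with log2 fold changes of -0.66 for Ier2 (-0.75 without the score) and 1.01 for Maff (1.11 without it).

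The second question was whether the genes differed between libraries labelled Tob-KO and WT. None of the 10 was called at any time by edgeR's exact test with a fold change of at least 2. Of all genes tested, 0.0218% were called in naive libraries, 0.555% at 15 min, 0.033% at 1 h and 0.0274% at 3 h. At an unadjusted p of at most 0.05, 2 members passed in naive libraries (Cyr61 and Ier5), 4 at 15 min (Ier2, Ier3, Cyr61 and Klf4), 0 at 1 h and 1 at 3 h (Ier2), and DESeq2 with the same limits called 0 each time. Of all genes, 742 of 18364 passed that p in naive libraries, 1478 of 18364 at 15 min, 970 of 18169 at 1 h and 725 of 18255 at 3 h.

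**Figure D4:**
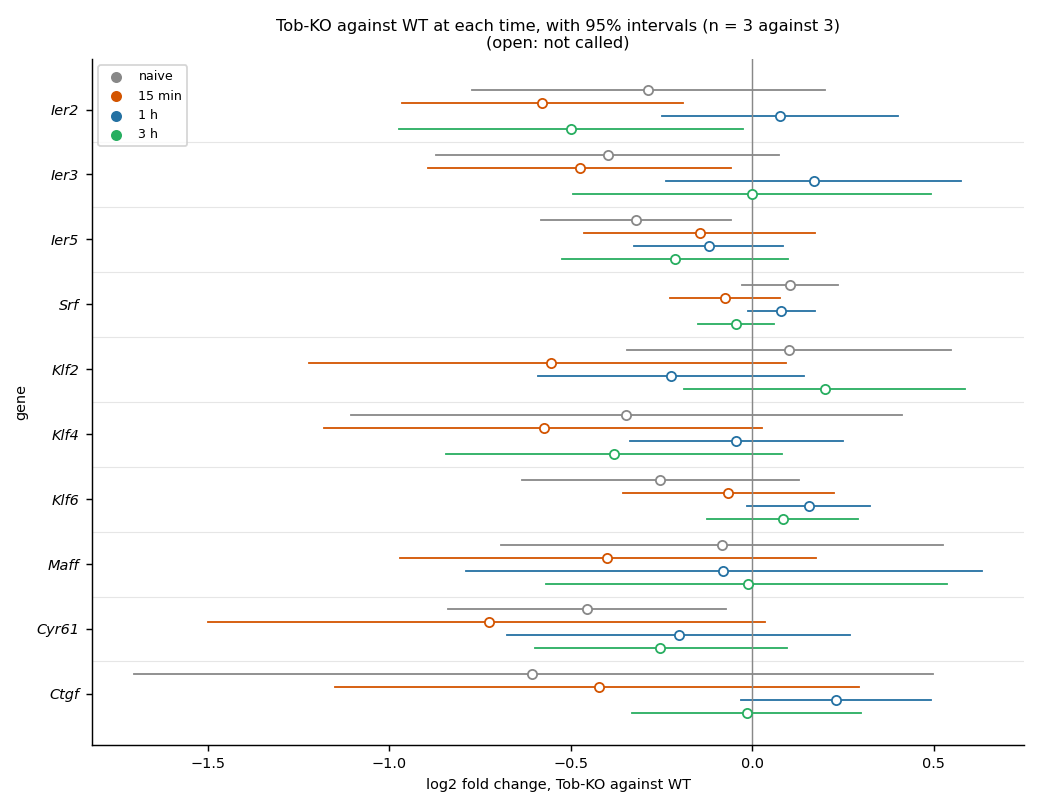
Log2 fold change between libraries labelled Tob-KO and WT (x axis) for each gene (y axis) at the 4 times, with 95% intervals from 3 against 3 libraries; open points were not called. Below 0 lie 8 of the 10 points in naive libraries, all 10 at 15 min, 5 at 1 h and 8 at 3 h.

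In naive libraries Cyr61 measured 2.88, 3.52 and 3.06 CPM against 5.15, 4.06 and 3.79 in WT and Ier5 47.7, 35.7 and 46.9 CPM against 55.8, 57.3 and 50, both without overlap, and neither was called (log2 fold change -0.46 ± 0.17 and -0.32 ± 0.11, adjusted p 1 for both in edgeR's exact test). Of all genes tested 11.4% had no overlap in naive libraries, so 2 of 10 is near the background. At 15 min all 10 genes had a value below 0, with a median log2 fold change of -0.45 against -0.00577 over all genes tested. Values below 0 were also held by 8 of the 10 in naive libraries (median -0.30 against 0.00572) and by 8 at 3 h (-0.03 against -0.00179). Several of the 10 ran together over the libraries (r = 0.91 for Ier2 and Cyr61), so their signs are not independent. At 15 min Ier2 measured 10.7, 6.93 and 10.3 CPM against 16.1, 13.0 and 12.6 in WT, so that the groups did not overlap, with a log2 fold change of -0.58 ± 0.17 (p 0.00244, adjusted p 0.152 in edgeR's exact test). Ier3 measured 3.12, 2.27 and 3.57 CPM against 4.27, 4.39 and 3.81, also without overlap, with -0.48 ± 0.19 (adjusted p 0.491, same test). Of all genes tested 13.3% had no overlap at 15 min, and 2 of 10 is near that share too. Cyr61 had -0.73 ± 0.34 (adjusted p 0.558) and Klf4 -0.57 ± 0.27 (adjusted p 0.599), both with overlapping groups. In these groups the blood markers (Hbb-bs, Hba-a1, Alas2, S100a8 and S100a9) summed to 64.4 to 124 CPM in WT and 38.1 to 51.5 CPM in the libraries labelled Tob-KO, and the choroid plexus markers to 26.5 to 45.5 and 65.1 to 3300 CPM. Their part in the values of the 10 genes was not tested.

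Single libraries decided 2 further genotype values. Klf2 at 15 min had -0.55 ± 0.29 (adjusted p 0.704 in edgeR's exact test), and without labelled Tob-KO replicate 1, the only library of that group above the naive range, -1.0 (adjusted p 0.000729). Ctgf in naive libraries had -0.61 ± 0.48 (adjusted p 1), and without labelled Tob-KO replicate 3, which stood apart, -1.44 (adjusted p 0.000931). Without that same library Ctgf was also called higher at 1 h than naive in the libraries labelled Tob-KO, at 1.38 instead of 0.54 (adjusted p 0.0468 in edgeR's quasi-likelihood test). For Ier2 at 15 min the adjusted p ran from 0.0348 to 0.646 in edgeR's exact test with 1 library left out. Its log2 fold change, -0.69 to -0.40, stayed under the fold limit, so it was not called.

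Averaged over the 4 time points 0 of the 10 genes were called against 0.421% of all genes, by edgeR's quasi-likelihood test and by DESeq2. The unadjusted p was at most 0.05 for 4 of them and for 2638 of all 19500 genes, with log2 fold changes of -0.41 ± 0.15 for Cyr61 (adjusted p 0.222), -0.34 ± 0.14 for Klf4 (adjusted p 0.314), -0.32 ± 0.11 for Ier2 (adjusted p 0.19) and -0.20 ± 0.08 for Ier5 (adjusted p 0.252). Srf had 0.02, with an interval of -0.04 to 0.07, the narrowest of the 10.

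Whether the response itself differed between the genotypes was tested as an interaction. Of the 10 genes 0 were called at 15 min, 1 h or 3 h, as were 0% of all genes, by edgeR's quasi-likelihood test and by DESeq2, and only Srf at 15 min had an unadjusted p of at most 0.05 (-0.17 ± 0.07, p 0.0257, adjusted p 0.981). At 15 min Srf was 0.17 ± 0.05 above naive in WT (adjusted p 0.444) and -0.01 ± 0.05 in the libraries labelled Tob-KO (adjusted p 0.951). Of all 19500 genes, 939, 809 and 924 had an unadjusted p of at most 0.05 at these 3 times in turn. For Klf2 the interaction at 15 min was -0.66 (95% interval -1.42 to 0.10), for Cyr61 -0.27 (-1.12 to 0.59) and for Ier2 -0.29 (-0.91 to 0.33).

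Beside the 10 genes, other targets of SRF were counted in the same fits, to be read against the 1.6% of all genes called higher at 15 min, the 2.36% called higher at 1 h and the 1.98% called lower from 1 h to 3 h. Of 9 targets of the Fos and Egr type, 7 had risen at 15 min (Egr2 by 2.70 ± 0.28 on the log2 scale, Fos by 2.13 ± 0.20, Arc by 1.19 ± 0.19, Junb by 0.99 ± 0.12, Egr1, Fosb and 1 more), 8 at 1 h (Egr2 by 2.34 ± 0.28 and Fos by 1.67 ± 0.20) and 8 fell from 1 h to 3 h. Their median log2 fold change was 0.76 at 15 min and 0.88 at 1 h. Of 13 targets of the actin cytoskeleton, 1 had risen at 15 min (Tagln2, by 0.29 ± 0.08) and 2 at 1 h (Actg1, by 0.13 ± 0.04, and Vcl, by 0.16 ± 0.05), with medians of 0.11 and 0.14. From 1 h to 3 h Tagln2, Acta2 and Vcl fell and Fhl2 rose (0.30 ± 0.06). Actg1, a cytoplasmic actin, was the only gene of these lists called between the genotypes over all times (0.13 ± 0.03, adjusted p 0.0345 in edgeR's quasi-likelihood test).

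Among the 6 SRF cofactors only Mkl1 was called, at 15 min, against 2.75% of all genes called lower at that time. It fell by 0.24 on the log2 scale (SE 0.03, adjusted p 0.000303 in edgeR's quasi-likelihood test). It then rose by 0.17 ± 0.03 to 1 h (adjusted p 0.0271) and by 0.12 ± 0.03 to 3 h (adjusted p 0.0499, same test), the latter just under the limit. Of all genes tested, 0.226% were called higher from 15 min to 1 h and 1.33% from 1 h to 3 h. Mkl1 ranged from 73.5 to 96.7 CPM over the 24 libraries, Mkl2 from 246 to 297, Elk1 from 55.8 to 86.1, Elk4 from 20.6 to 25.7 and Elk3 from 6.02 to 10.3, while Myocd stayed at 0.0582 to 0.487 CPM.

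Of the 14 other Klf genes 12 were measured, and at 15 min Klf7 (0.18 ± 0.05) and Klf11 (0.37 ± 0.10) had risen and Klf9 (-0.18 ± 0.05) had fallen. At 1 h only Klf16 was called (0.18 ± 0.04) against naive. Of the 12, 1 was called lower from 15 min to 1 h and 1 lower from 1 h to 3 h. Of all genes tested 1.6% were called higher and 2.75% lower at 15 min, and 2.36% higher at 1 h. From 15 min to 1 h 0.185% were called lower, and from 1 h to 3 h 1.98%. In the YAP and TEAD pathway 10 of 11 genes were measured. Amotl2, a target and inhibitor of YAP (0.28 ± 0.06), and Wwtr1, which encodes TAZ (0.28 ± 0.07), had risen at 15 min. Amotl2 fell by 0.32 by 1 h (SE 0.07, adjusted p 0.0343 in edgeR's quasi-likelihood test). None of the 4 other CCN genes, of the 11 measured Maf genes and partners, or Ier5l was called at 15 min, 1 h or 3 h in the mean of the genotypes by that test.

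The genes whose log2 CPM ran most like each member over the 24 libraries are given as a description, since the libraries share the time course and the depth. Ier2 ran most like Dusp1 (Pearson r = 0.92), a phosphatase of ERK and p38, and Npas4 (0.92), an activity-dependent factor of neurons. Cyr61 ran most like Dusp1 (0.95) and Junb (0.94), Klf4 like Fosb (0.85) and Egr1 (0.85), and Klf2 like Irf2bp2 (0.86) and Junb (0.84). Srf ran most like Jmjd6 (0.85) and Ppp1r15b (0.84), and Maff like Pptc7 (0.78) and Irs2 (0.76). The genes without a called change had other partners, namely Ier3 with Lrrc32 (0.81) and Tbx18 (0.79), Klf6 with Car10 (0.89) and Asic1 (0.87), and Ctgf with Sphk1 (0.94) and Foxc2 (0.93). Ier5 was the exception, with Tbc1d30 (0.87) and Egr1 (0.87).

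Among the 10 themselves the closest pairs were Ier2 and Cyr61 (r = 0.91), Klf2 and Cyr61 (0.86), and Klf2 and Klf4 (0.79), while Klf6 ran with Ctgf (0.70). Of the genes called at 15 min, Maff ran apart from Ier2 (r = -0.20) and Cyr61 (0.03), and less so from Klf2 (0.29).

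The mRNAs also differ in a feature that the choice of genes did not use. The pentamer ATTTA, a part of AU-rich elements that shorten the life of many early mRNAs, was counted in the longest annotated 3′ untranslated region of each gene (GENCODE M21, GRCm38). Over 20209 genes with at least 100 such bases the median was 1.26 per kilobase. Ier3 held 5 in 613 bases (8.16 per kilobase, above 98.5% of genes) and Cyr61 held 5 in 690 (7.25, above 97.7%). Maff held 4 in 1221 bases (3.28 per kilobase) and 2 copies of the longer element TTATTTATT, which 7.93% of genes hold at least once, and Srf held 1 copy of it. Ier2 held no ATTTA in 755 bases. The remaining 5 genes held between 0.933 and 2.25 per kilobase. A count of letters describes the annotated transcript and not how long the mRNA lives.

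All positions are 1-based on GRCm38. The 10 genes lie on 8 chromosomes, with Ier2 at chr8:84661331-84662852 (minus strand, 1 exon), Ier5 at chr1:155096361-155099636 (minus, 1 exon) and Ier3 at chr17:35821684-35822923 (plus, 2 exons). Srf lies at chr17:46548329-46556175 (minus), Klf2 at chr8:72319033-72321656 (plus), Klf4 at chr4:55527143-55532466 (minus) and Klf6 at chr13:5861482-5870394 (plus). Maff lies at chr15:79346621-79359076 (plus), Cyr61 at chr3:145646976-145649981 (minus) and Ctgf at chr10:24595442-24598683 (plus). Counts were summed over the whole gene, so no value here belongs to a single exon.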

How the data were processed

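RNA was measured by poly(A) RNA-seq in 24 hippocampal libraries, 3 per genotype and time point. The deposited values are whole-number counts per gene, which the authors made by aligning 150-bp paired reads to GRCm38 with STAR 2.6.1d and counting with HTSeq 0.9.0. The annotation release and the strand setting of the counting are not given in the sources used here. Total counts ran from 28847989 to 41595972, and no table column was without a sample.

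Changes over time, genotype averaged over time, and interactions were tested with edgeR 4.0.16 (R 4.3.3) by its quasi-likelihood test over all 24 libraries, on 19500 genes with at least 0.2 CPM in 2 libraries, after TMM scaling and with Benjamini-Hochberg adjustment (limit 0.05). Genotype at each time was tested as in the study's methods, with edgeR's exact test on the 6 libraries and a fold change of at least 2, and its SE and intervals came from the quasi-likelihood fit of the same 6. Levels are TMM-scaled CPM. Scores are means of centred log2 CPM (prior count 2). All 10 members were named whatever their result, and of each other list the called genes, at most 6 by smallest p, with the cofactors by level. The members and lists were chosen with earlier results of these data known. Alternatives were DESeq2 1.42.0, its size factors, no low-count filter, a fold limit, a replicate block, marker scores as covariates, fewer libraries in the fit and leaving out each library. The test script was tested on simulated data with known changes. Descriptive steps used Python 3.11.15, NumPy 2.4.6 and pandas 2.3.3.

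Same-numbered replicates did not deviate together: in 0 of 28 pairs of groups was every same-number correlation over 0.1 (range -0.418 to 0.383). Replicates differed by more than sampling noise, with a chi-square per degree of freedom of 3.68 to 22.8 over 24 pairs within groups, so each counts as 1 sample.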

Additional observations from a re-analysis of the deposited data

How the results depend on the processing

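Of 3312 alternative values for the 10 genes over all contrasts, 3217 stayed on the same side of the limit, mostly as values not called before or after, 71 lost a call, 24 gained one and 0 reversed a called direction, while 170 changed sign with neither value called. For 18 DESeq2 gave no adjusted p. The numbers of the 10 genes called at 15 min in WT (2) and in the libraries labelled Tob-KO (2) became 0 and 0 with the endothelium score as a covariate (log2 fold changes in WT 1.12 for Ier2 and 1.88 for Cyr61, and in the others 0.88 and 1.59, against 1.27, 1.80, 0.98 and 1.53). They also became 0 and 0 with only 6 libraries in the quasi-likelihood fit, but edgeR's exact test on those 6 kept the calls of Ier2 and Cyr61. At 1 h the numbers were 0 in both, and became 2 and 3 with DESeq2, 1 and 2 with edgeR's exact test, and in those labelled Tob-KO 1 with only 6 libraries. The shares of all genes called under these alternatives are not given here, so these counts have no background beside them. Averaged over the genotypes, the 3 calls at 15 min became 1 with the endothelium score. The 2 calls between 15 min and 1 h became 0 with either score and 1 with only 12 libraries. The 4 calls between 1 h and 3 h became 2 with the endothelium score. With a fold change of at least 2 required, 1 call was left at 15 min in those labelled Tob-KO, 0 at 1 h, 1 between 15 min and 1 h and 1 between 1 h and 3 h. Cause was not tested, except that the fold limit removes small changes and fits of 6 libraries have 4 residual degrees of freedom against 16.

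With each library left out in turn there were 0 to 2 calls at 15 min in each genotype, 0 at 1 h in WT and 0 to 1 in those labelled Tob-KO, and 0 at 3 h. Averaged over the genotypes it gave 3 to 4 at 15 min, 3 to 5 at 1 h, 0 at 3 h, 0 to 2 between 15 min and 1 h and 2 to 5 between 1 h and 3 h. For genotype it gave 0 to 1 in naive libraries and at 15 min, and 0 otherwise, as for the interactions. With the replicate number as a block, every count of called members was as without it (3 at 15 min and 5 at 1 h averaged over the genotypes), but the numbers do not pair the samples. Depth limits Maff most, with 22 to 75 counts per library.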
